A study of Mus musculus with 8 samples.

Results

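The liver of MET KO + EGFRi mice was read on 1 array at day 5 and on 1 array at day 2 after the mitogen TCPOBOP, and the late response of this arm was followed over all probe sets of these 2 arrays, out of 8 in the series. The 2 arrays were found by their labels. The MET KO + EGFRi mice carried floxed Met alleles and the inducible Cre (Metff/ff:ERCre+/+) and had 5 daily injections of tamoxifen, each 100 µl at 10 mg/ml. They ate canertinib, an inhibitor of the EGFR family of receptor kinases, at an intended 80 mg/kg per day, starting 1 day ahead of TCPOBOP. The controls were littermates of the same genotype that received corn oil without tamoxifen, so they kept the inducible Cre but not its activation, and for them no canertinib is named. Both arms received TCPOBOP at 3 mg/kg by gavage, and livers were taken on days 0, 1, 2 and 5. Each array held RNA pooled from several livers. The number of mice in a pool, their age and sex, the deleted part of Met, and whether the day 0 mice had been gavaged are not given in the labels. The deletion was systemic and not restricted to hepatocytes.

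TCPOBOP is a ligand of CAR, the constitutive androstane receptor (gene Nr1i3). In mouse liver this nuclear receptor switches on drug-metabolising enzymes and drives hepatocytes into the cell cycle without prior loss of tissue. MET, the receptor of hepatocyte growth factor, and EGFR, the receptor of epidermal growth factor and its relatives, are the main receptors through which hepatocytes receive growth signals. A cell that divides first makes the enzymes of DNA synthesis, such as the subunits of ribonucleotide reductase, and later the cyclins, kinases and spindle proteins of mitosis. The late comparison asks what these livers did between days 2 and 5, including whether cell cycle genes were raised late.

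With 1 array per group no spread between animals could be measured and no p-value was computed for day 5 against day 2 within an arm. All differences below are log2(signal + 71) at day 5 minus day 2 unless another pair is named, so that changes of weak genes are understated. A gene is read from its strongest probe set, and for many genes the values of other bright probe sets are given too. Between probe sets of one gene the change differed by a median of 0.30 on the log2 scale over 4377 genes. In the day 5 array the ratio of 3' to 5' actin probe sets was 2.36, against 1.86 in the day 2 array, the highest and the fourth highest of the 8. The spiked hybridisation controls were 0.10 to 0.85 brighter on the log2 scale at day 5 (9 probe sets, median 0.36), while the median signals were 240.7 and 234.7. The part of RNA quality and hybridisation in the results was not tested. Met itself had signals of 1358 at day 5 and 2034 at day 2 in MET KO + EGFRi livers, against 1149 and 1336 in controls, and its weaker probe set 389 and 650.0, against 531 and 359. These probe sets are not known to lie in the deleted part, so they check nothing about the deletion.

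Between days 2 and 5 the MET KO + EGFRi liver showed higher signals of cholesterol synthesis enzymes, of the oestrogen sulfotransferase Sult1e1 and of a few dim cell cycle genes, and lower signals of serum amyloid A and of several genes of fatty acid oxidation and the growth hormone axis. Of 12112 genes kept, 170 (1.4 percent) were at least 2-fold higher at day 5 and 207 (1.71 percent) at least 2-fold lower. In control livers 335 (2.77 percent) were at least 2-fold higher and 268 (2.21 percent) lower. At least 4-fold, 12 genes were higher and 15 lower in MET KO + EGFRi. Over all kept genes the median change was 0.01 in MET KO + EGFRi and 0.04 in controls.

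Of the 170 higher genes, 132 had their lowest signal of the 4 MET KO + EGFRi arrays at day 2, and 105 had their highest at day 5. Of the 207 lower genes, 177 had their lowest signal at day 5 and 122 their highest at day 2. Many of these genes were dim: in 75 of the higher and 114 of the lower the brighter of both signals was at or above its array's upper quartile. A second probe set bright enough to read was present for 33 of the higher genes, and it was also higher in 22 and at least 2-fold higher in 6. For 50 of the lower genes the second probe set was also lower in 37 and at least 2-fold lower in 10. Over all 4377 genes with such a probe set the directions matched in 54.9 percent.

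**Figure D1:**
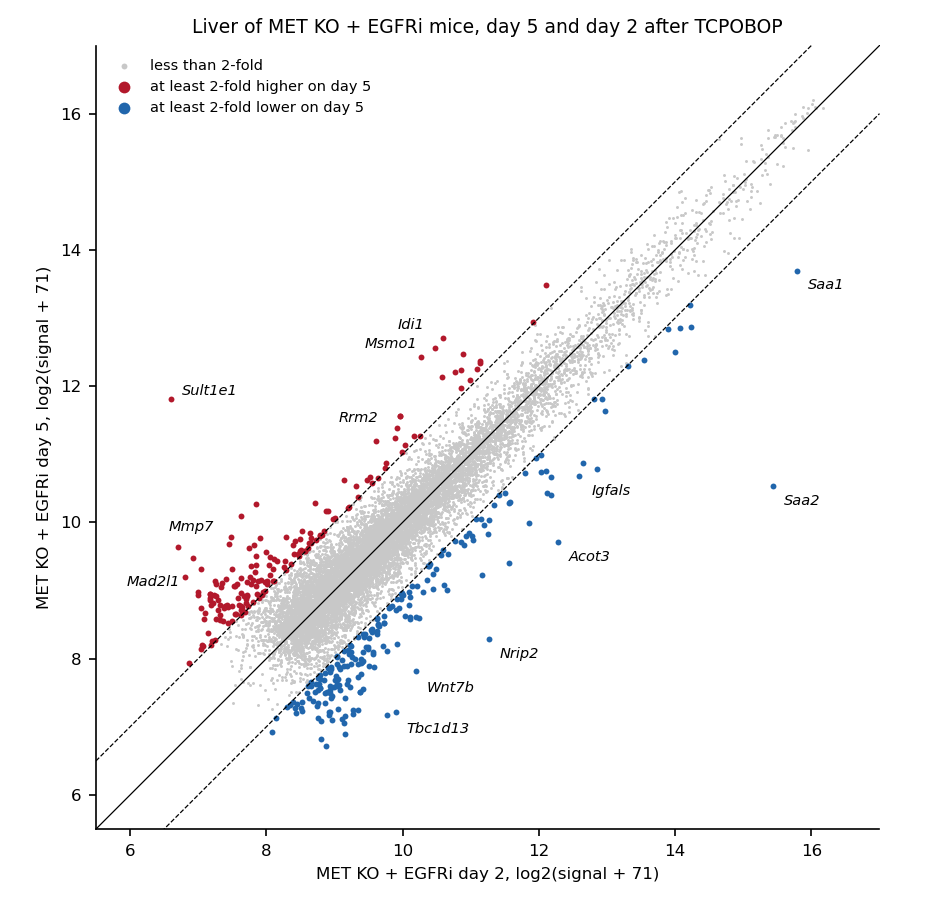
Each point is 1 of 12112 genes, with log2(signal + 71) in the MET KO + EGFRi array of day 2 on the x axis and of day 5 on the y axis; the solid line marks equal signals and the dashed lines a 2-fold difference. Sult1e1 stands far above the lines, Saa2 and Saa1 far below them, and the brighter genes above the upper line include Idi1 and Msmo1.

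More cell cycle genes had higher than lower signals at day 5 in MET KO + EGFRi livers, mostly by small amounts, and more had lower than higher signals in controls. Over 94 genes of G1/S control, DNA replication and mitosis, 65 were higher at day 5 in MET KO + EGFRi, against 51.3 percent of all kept genes. Of these, 6 were higher by 2-fold or more, and none of the 94 was lower by 2-fold or more. But 4 of the 6 (Mad2l1, E2f2, Ect2 and Ccnb2) passed the filter on low signals only through the control arrays. On the MET KO + EGFRi arrays alone 87 of the 94 passed it, of which 2 (2.3 percent) were at least 2-fold higher, against 1.21 percent of the 11870 genes passing in this way. Of the 87, 59 were higher at day 5 in MET KO + EGFRi, as were 6083 of the 11870. In controls 24 of the 94 were higher (25.5 percent, against 54.3 percent of all kept genes). There 1 was higher by 2-fold or more (1.06 percent, against 2.77 percent of all kept genes). In the same arm 17 were lower by 2-fold or more (18.1 percent, against 2.21 percent of all kept genes). All 17 of these were higher at day 5 in MET KO + EGFRi, but they include Mad2l1, Ect2 and Ccnb2. The like share over all genes at least 2-fold lower in controls was not counted, so no conclusion is drawn from the count of 17. The median change was 0.18 in MET KO + EGFRi and -0.39 in controls.

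The 6 genes with such increases were Mad2l1, Rrm2, E2f2, Ect2, Ccnb2 and Clspn. Mad2l1, a spindle checkpoint protein, had signals of 202, 376, 56.4 and 432 on days 0, 1, 2 and 5 in MET KO + EGFRi and of 158, 531, 1963 and 188 in controls. The day 2 array of MET KO + EGFRi was thus the lowest of all 8 and that of the controls the highest, and the change was 1.98 in MET KO + EGFRi (1.18 to 2.94 with other pseudocounts) and -2.97 in controls. Rrm2, the small subunit of ribonucleotide reductase, had 603, 1967, 899.5 and 2613 in MET KO + EGFRi and 551, 3684, 3857 and 905 in controls. Its 3 probe sets in MET KO + EGFRi gave 1.47, 1.19 and 1.07, of which the strongest can bind related RNAs, and the control change was -2.01.

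Ccnb2, a mitotic cyclin, had 35.1, 174, 163 and 422 on days 0, 1, 2 and 5 in MET KO + EGFRi and 40.7, 424, 2030.4 and 269 in controls, a change of 1.07 and of -2.63. Ect2, an exchange factor needed for cytokinesis, had 95.1, 209, 116 and 333 in MET KO + EGFRi and 86.9, 501, 1076 and 344 in controls (1.11 and -1.47). In both genes the day 5 array was the highest of the MET KO + EGFRi arm yet stayed far under the control array of day 2. E2f2, a transcription factor of the G1/S transition, had 196, 261, 70.7 and 261 in MET KO + EGFRi and 297, 407, 357 and 279.8 in controls, and the checkpoint adaptor Clspn had 316, 366, 167 and 406 in MET KO + EGFRi and 139, 267, 252 and 271 in controls. For these 2 genes day 2 was a low point among otherwise similar values, and the changes were 1.23 and 1.00 in MET KO + EGFRi, against -0.29 and 0.08 in controls.

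Markers of dividing cells that were read whatever their change, Cdk1, Mki67, Top2a and Cdc20, differed by less than 2-fold in MET KO + EGFRi. Cdk1, the kinase that starts mitosis, had 88.5, 348, 383 and 449.9 on days 0, 1, 2 and 5 in MET KO + EGFRi and 95.0, 784, 1421 and 317 in controls, a change of 0.20 and of -1.94. Mki67, a marker of cycling cells, had 115, 263, 289 and 312 in MET KO + EGFRi and 192, 447, 636 and 297 in controls (0.09 and -0.94). Both genes had reached most of their day 5 signal in MET KO + EGFRi by day 1. Top2a, a topoisomerase of mitotic chromosomes, had 519 at day 5 and 419.8 at day 2 in MET KO + EGFRi, against 441 and 724 in controls (0.27 and -0.63). Cdc20, an activator of the anaphase-promoting complex, had 613 and 416 in MET KO + EGFRi, against 816 and 2841 in controls (0.49, with 0.27 for a second probe set, and -1.72).

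Other members pointed both ways. In MET KO + EGFRi the replicative helicase subunit Mcm2 had a change of 0.72 (0.43 for its second probe set), the catalytic subunit of DNA polymerase delta Pold1 of 0.85, the spindle protein Nusap1 of 0.81 and cyclin Ccna2 of 0.76 (0.39). The clamp loader subunit Rfc2 had -0.97, the cytokinesis protein Racgap1 -0.83 and thymidine kinase Tk1 -0.79. Foxm1, a transcription factor of mitotic genes, had 0.49, cyclin Ccnd1 0.25, 0.51 and 0.48 in its 3 probe sets, Myc 0.09 and the CDK inhibitor Cdkn1a 0.25. Of 20 CDK inhibitors and p53 targets none was 2-fold different, and 10 were higher.

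By list, 3 of 42 mitotic genes, 2 of 34 replication genes and 1 of 18 G1/S genes were at least 2-fold higher in MET KO + EGFRi and none lower, with medians of 0.19, 0.18 and 0.15. The replication median was 0.03 with a filter at the upper quartile of signals and 0.06 with the mean of a gene's probe sets. In controls the medians were -0.44, -0.49 and -0.13. Against their own day 0, the mitotic genes had medians of 0.32, 0.11 and 0.41 on days 1, 2 and 5 in MET KO + EGFRi and of 0.43, 0.75 and 0.29 in controls. The highest of the 4 MET KO + EGFRi arrays was day 5 for 42 of the 94 cell cycle genes, day 1 for 37, day 2 for 11 and day 0 for 4. Among the 94 genes the shares of days 5 and 1 were thus 44.7 and 39.4 percent. Over all kept genes day 5 was the highest for 26.9 percent, day 1 for 24.8, day 2 for 24.1 and day 0 for 24.2 percent. Of the 94 genes, 70 had a lower signal at day 5 in MET KO + EGFRi than at day 2 in controls, with a median difference of -0.31, against 47.2 percent of all kept genes and a median of 0.03. Whether the arms differ in these changes was not tested, since each rests on 1 pool per day.

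**Figure D2:**
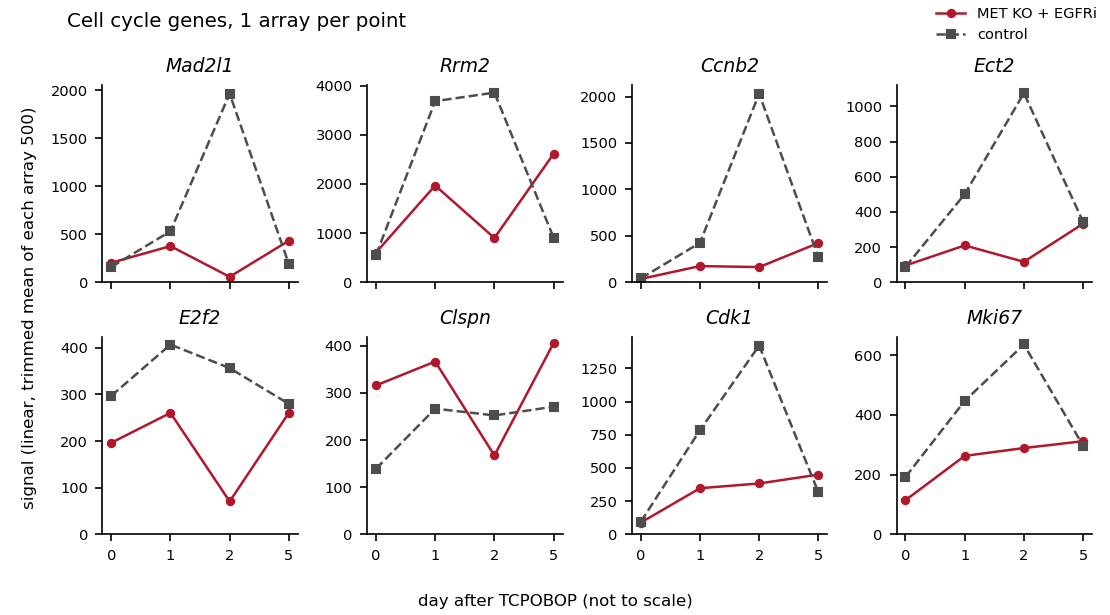
Signal (linear) of 8 cell cycle genes on days 0, 1, 2 and 5 in MET KO + EGFRi (red circles) and control livers (grey squares), 1 array per point and days evenly spaced. The controls peak at day 1 or 2 in 7 of the genes, Clspn being the exception; Mad2l1, Rrm2, Ect2, E2f2 and Clspn dip at day 2 in MET KO + EGFRi, while Cdk1 and Mki67 are level after day 1.

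Cell cycle promoters often hold a CHR element (TTTGAA or TTTAAA), bound by the DREAM and MYB-MuvB complexes, and CCAAT boxes, bound by NF-Y. They are shown for Ect2, whose window holds both, and for Rrm2, whose window holds a CCAAT box only. Both genes were at least 2-fold higher in MET KO + EGFRi and at least 2-fold lower in controls. The 250 bases upstream of the start are given 5′ to 3′ on the gene's strand, with matches in capitals, as RefSeq gives them for build GRCm38.p6, at chr3:27153879-27154128 on the minus strand for Ect2 and chr12:24708004-24708253 on the plus strand for Rrm2.
Ect2: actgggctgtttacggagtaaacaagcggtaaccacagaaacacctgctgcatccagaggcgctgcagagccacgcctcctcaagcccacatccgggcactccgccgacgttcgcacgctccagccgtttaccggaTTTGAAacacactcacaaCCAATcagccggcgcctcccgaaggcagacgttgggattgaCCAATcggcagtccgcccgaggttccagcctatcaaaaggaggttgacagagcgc
Rrm2: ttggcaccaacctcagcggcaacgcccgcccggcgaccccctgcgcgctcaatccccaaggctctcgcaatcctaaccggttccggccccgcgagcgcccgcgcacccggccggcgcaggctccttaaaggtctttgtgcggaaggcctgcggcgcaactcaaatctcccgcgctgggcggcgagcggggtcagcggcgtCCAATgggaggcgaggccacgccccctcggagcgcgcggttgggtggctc
Searched on both strands, a CHR match was found in 34 of 91 promoters of the 94 genes, against 25.2 percent of 32851 promoters, and a CCAAT match (CCAAT or ATTGG) in 61 of 91, against 33.8 percent. An E2F match (TTTCCCGC or TTTGGCGC) was found in 9 of 91, against 1.3 percent. The window of Mad2l1, which had the largest rise of the 94 genes, held none of these elements. The 91 promoters belong to 76 of the genes. A match describes letters in this window and not binding.

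Cholesterol synthesis was the list furthest from 0. Of its 19 measured genes 17 were higher at day 5 in MET KO + EGFRi, 8 at least 2-fold (42.1 percent, against 1.4 percent of all genes) and none at least 2-fold lower, with a median of 0.70. In controls 13 were higher (68.4 percent, against 54.3 percent of all kept genes), none by 2-fold in either direction, with a median of 0.06. In MET KO + EGFRi day 2 was the low point: 13 of the 19 had their lowest signal there, against 24.8 percent of all kept genes, and against day 0 the medians were 0.31, -0.60 and 0.18 on days 1, 2 and 5. In controls they were 0.72, 0.33 and 0.44. The day 5 signal in MET KO + EGFRi was below the day 2 control signal for 17 of 19 genes.

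Idi1, which isomerises isopentenyl diphosphate, had 4272, 7849.6, 1479.9 and 6640.1 on days 0, 1, 2 and 5 in MET KO + EGFRi and 5253, 14159, 6685 and 7278 in controls. Its 2 probe sets gave 2.11 and 2.33 in MET KO + EGFRi, and the stronger gave 0.12 in controls. Msmo1, a sterol C4 demethylase, had 3094, 6888, 1360.3 and 5983 in MET KO + EGFRi and 4203, 12235, 7993 and 8968 in controls (2.08 and 0.16). In both genes the MET KO + EGFRi array of day 2 was the lowest of all 8 and the control array of day 1 the highest.

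Cyp51, the lanosterol demethylase, had 2597, 3236, 924 and 2949 on days 0, 1, 2 and 5 in MET KO + EGFRi and 1682, 5095, 3325 and 3131 in controls, with changes of 1.60 (2.26 for the second probe set) and -0.08. Sqle, squalene epoxidase, had 4135, 7316, 1676 and 4671 in MET KO + EGFRi and 3109.9, 8521, 5825 and 5693 in controls (1.44 and -0.03). Hmgcs1, the synthase that makes HMG-CoA, had 8452, 11002, 4320.1 and 11353 in MET KO + EGFRi and 8797, 24242, 14679.7 and 21571 in controls. Its 4 readable probe sets gave 1.38, 1.60, 1.53 and 1.06 in MET KO + EGFRi, and the strongest gave 0.55 in controls. Fdft1, squalene synthase, had 2761, 4468, 1793 and 4755 in MET KO + EGFRi and 3796, 9350.3, 5382 and 6524 in controls (1.37, with 1.74 for a second probe set, and 0.27). All of these genes had their lowest MET KO + EGFRi signal at day 2 and came back to at least the day 0 level by day 5.

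**Figure D3:**
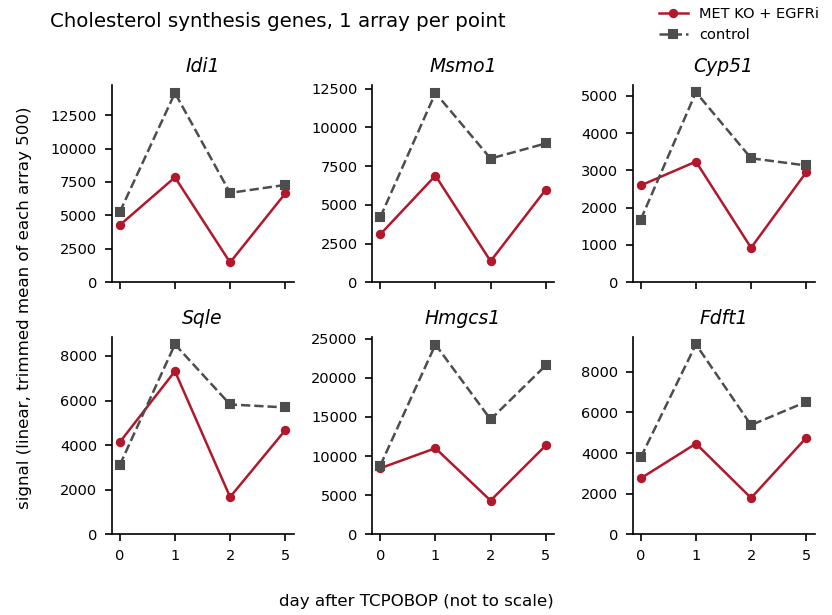
Signal (linear) of 6 cholesterol synthesis genes on days 0, 1, 2 and 5 in MET KO + EGFRi (red circles) and control livers (grey squares), 1 array per point and days evenly spaced. Each gene has its MET KO + EGFRi minimum at day 2, and the control array lies above it on days 1, 2 and 5.

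Sterol genes are controlled by SREBP factors, which bind sterol response elements and act together with NF-Y at CCAAT boxes. The upstream 250 bases of 3 of these genes are shown because of these elements, from the same source and build, with matches in capitals, at chr13:8885356-8885605 (plus strand), chr8:64733579-64733828 (minus strand) and chr13:119690101-119690350 (plus strand).
Idi1: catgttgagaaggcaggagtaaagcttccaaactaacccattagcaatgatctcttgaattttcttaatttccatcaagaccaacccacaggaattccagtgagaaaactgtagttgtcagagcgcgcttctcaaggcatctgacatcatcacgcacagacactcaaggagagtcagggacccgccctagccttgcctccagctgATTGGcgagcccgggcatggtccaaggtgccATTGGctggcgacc
Msmo1: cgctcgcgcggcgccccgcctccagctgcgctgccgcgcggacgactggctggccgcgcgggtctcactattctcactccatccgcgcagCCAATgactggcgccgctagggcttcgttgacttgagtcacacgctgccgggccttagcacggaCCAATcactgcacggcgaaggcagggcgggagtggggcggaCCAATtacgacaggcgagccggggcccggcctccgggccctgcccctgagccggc
Hmgcs1: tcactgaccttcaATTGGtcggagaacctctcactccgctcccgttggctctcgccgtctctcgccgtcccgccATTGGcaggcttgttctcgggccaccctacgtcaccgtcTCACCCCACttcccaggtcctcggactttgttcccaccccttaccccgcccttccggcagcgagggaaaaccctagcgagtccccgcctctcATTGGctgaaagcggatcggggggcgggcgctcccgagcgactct
All 15 list members with a promoter in the table held a CCAAT match in at least 1 promoter, 15 of 18 promoters, against 33.8 percent of all 32851. The sterol response element TCACNCCAC was found in 1 of the 18, that of Hmgcs1, against 1.05 percent of all. No match says only that these letters are not in this window.

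**Figure D4:**
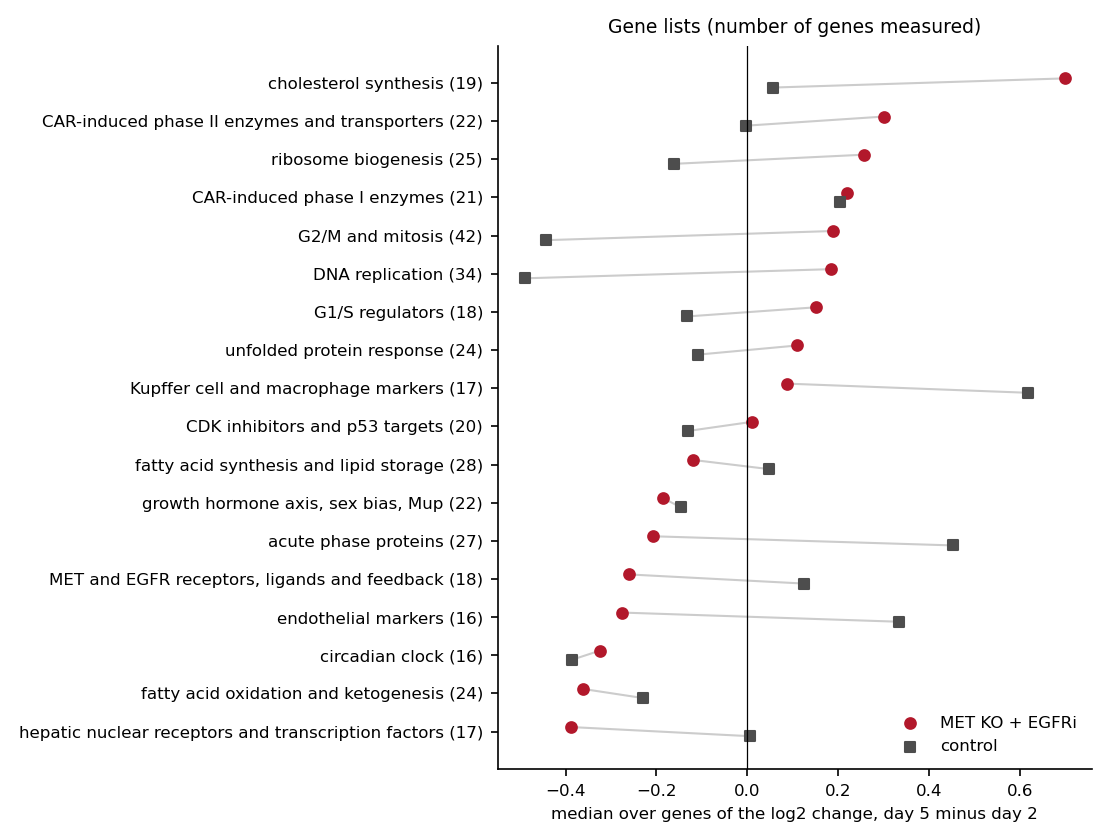
Median log2 change, day 5 minus day 2, over the measured genes of 18 lists (number in brackets), in MET KO + EGFRi (red circles) and control livers (grey squares). Cholesterol synthesis lies highest in MET KO + EGFRi at 0.70, and the lists of DNA replication, mitosis, acute phase proteins and endothelial markers lie on opposite sides of 0 in the 2 arms.

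Of 21 phase I drug-metabolism genes, 12 were at least 2-fold above their day 0 signal at day 2 and 13 at day 5 in MET KO + EGFRi. Of 22 phase II genes 10 and 19 were. In controls the counts at days 2 and 5 were 13 and 12 for phase I and 14 and 11 for phase II. Both lists were drawn up as CAR-induced genes, and the share of all kept genes above day 0 was not counted. Cyp2b10, the best known CAR target, had 356, 37324, 32027 and 48292 on days 0, 1, 2 and 5 in MET KO + EGFRi and 444, 38898, 33939 and 45578 in controls, with changes of 0.59 (0.51 and 0.58 for its other probe sets) and 0.42. Of 21 phase I enzymes none was 2-fold different between days 5 and 2 in MET KO + EGFRi. Of 22 phase II enzymes and transporters 19 were higher at day 5 in MET KO + EGFRi, against 51.3 percent of all kept genes. At least 2-fold, 2 were higher, against 1.4 percent of all kept genes. In controls 11 were higher and 11 lower, with 2 at least 2-fold lower, against 2.21 percent of all kept genes. The medians were 0.30 in MET KO + EGFRi and 0.00 in controls. Sult1e1, which sulfates oestrogens, had 29.7, 1932, 26.5 and 3524 in MET KO + EGFRi and 23.8, 337, 344 and 476 in controls. The change was 5.20 on the scale with 71 added, against 0.40 in controls, and the day 2 signal was no higher than that of day 0. Since that signal lies under the added 71, the size of the change is set by the pseudocount, with 3.83 to 7.06 for others.

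The second 2-fold member was the glutathione transferase Gsta2, with 158, 782, 875 and 2338 on days 0, 1, 2 and 5 in MET KO + EGFRi and 2349, 1451, 5049.5 and 3767 in controls (1.35 and -0.42). Gstm3, another glutathione transferase, had a change of 0.98 in MET KO + EGFRi on a probe set that can bind relatives and of 2.13 on another. Nr1i3, the gene of CAR itself, had 1409, 863, 790.0 and 1709 in MET KO + EGFRi and 3141, 2065, 1784 and 1887 in controls. It was the only 1 of 17 hepatic nuclear receptors and transcription factors that was at least 2-fold higher (1.05, against 0.08 in controls).

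The other members of that list were mostly lower. Of the 17, 15 were lower at day 5 in MET KO + EGFRi and 3 at least 2-fold, against 1.71 percent of all genes, with a median of -0.39, against 0.01 in controls. Onecut1, a hepatocyte transcription factor, had 857, 915, 976 and 326 on days 0, 1, 2 and 5 in MET KO + EGFRi and 459.6, 574, 470.4 and 457 in controls, so that only the day 5 array stood out. Its change was -1.40, with -0.22 for a weaker probe set. Ppara, the receptor that drives fatty acid oxidation genes, had 3007, 1601, 2976 and 1193 in MET KO + EGFRi and 3732, 2280.3, 2795 and 867 in controls. It was lower at day 5 than at day 2 in both arms (-1.27 and -1.61), and its other probe sets in MET KO + EGFRi gave -0.96 and -0.10. Nr1h3, the oxysterol receptor LXR alpha, had -1.04 and the factor Cebpa -0.97 in MET KO + EGFRi, against -0.22 and 0.15 in controls.

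Of 24 fatty acid oxidation and ketogenesis genes 21 were lower at day 5 in MET KO + EGFRi, against 48.7 percent of all kept genes. At least 2-fold, 4 were lower, against 1.71 percent of all kept genes, and none of the 24 higher. In controls 17 of the 24 were lower and 7 higher. There 5 were at least 2-fold lower, against 2.21 percent of all kept genes, and 1 at least 2-fold higher. The medians were -0.36 in MET KO + EGFRi and -0.23 in controls. Acot3, a peroxisomal acyl-CoA thioesterase, had 1548, 343, 4928 and 770.1 on days 0, 1, 2 and 5 in MET KO + EGFRi and 6269.9, 516, 3024 and 1175 in controls (-2.57 and -1.31). In both arms it was high at day 2 and low on days 1 and 5. Ehhadh, an enzyme of peroxisomal oxidation, had 10706, 11964, 17221 and 7323 in MET KO + EGFRi and 6366, 4238, 6016 and 3316 in controls (-1.23 and -0.85). Acot1, a cytosolic thioesterase, had -1.09 and -1.97, and Acaa2, a mitochondrial thiolase, -0.999 in MET KO + EGFRi and 0.14 in controls, with -0.46 and -0.68 for its other probe sets in MET KO + EGFRi. Of 28 fatty acid synthesis and storage genes none was 2-fold different; Fasn had 0.59 and the lipid droplet protein Plin2 -0.79 in MET KO + EGFRi.

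Saa2, a serum amyloid A gene of the acute phase, had the largest decrease of all genes, and its relative Saa1 was also among the 12 largest of bright genes. Saa2 had 28584, 30385, 44381 and 1406 on days 0, 1, 2 and 5 in MET KO + EGFRi and 306, 391, 105 and 427 in controls, a change of -4.91 and of 1.51, on a probe set that can bind relatives. Saa1 had 42623, 49441, 56587 and 13192 in MET KO + EGFRi and 1516, 2612, 1046 and 2041 in controls. Its 2 probe sets in MET KO + EGFRi gave -2.09 and -3.41, the control change being 0.92. The 4 MET KO + EGFRi arrays were above all 4 control arrays for Saa2 and Saa1, day 5 included.

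The decrease was not shared by the list. Of 27 acute phase genes 16 were lower at day 5 in MET KO + EGFRi, against 48.7 percent of all kept genes. Only Saa2 and Saa1 were at least 2-fold lower, against 1.71 percent of all kept genes. In controls 23 of the 27 were higher, against 54.3 percent of all kept genes, and 4 lower. The medians were -0.21 in MET KO + EGFRi (-0.08 with the mean of a gene's probe sets) and 0.45 in controls. Lcn2, an iron-binding acute phase protein, had 34565, 36042, 7771 and 5470.1 on days 0, 1, 2 and 5 in MET KO + EGFRi and 622, 743, 525 and 911 in controls. The metallothionein Mt1 had 39104, 42558, 10537 and 8963 in MET KO + EGFRi and 4632, 843, 2328 and 2004 in controls. Both were high on days 0 and 1 and lower already on day 2 in MET KO + EGFRi, unlike Saa2 and Saa1, with changes of -0.50 and -0.23. The second probe set of Mt1 gave -1.01, while the first can bind related RNAs. Of 17 genes of the IL-6, STAT3 and glucocorticoid response, Socs1, a feedback inhibitor, was the only 2-fold member when genes were read from their strongest probe sets (1.14), with signals of 332, 402, 62.0 and 222 in MET KO + EGFRi.

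Some genes of the growth hormone axis list were among the larger decreases. The median of the whole list was -0.19 in MET KO + EGFRi and -0.15 in controls. Igfals, the subunit that stabilises IGF1 in blood, had 4199, 3173, 6123 and 1566 on days 0, 1, 2 and 5 in MET KO + EGFRi and 3456, 1573, 1424 and 2455 in controls (-1.92 and 0.76). Igf1 had 17804, 15775, 19023 and 9306 in MET KO + EGFRi and 14006, 10589.7, 9359.8 and 10135 in controls, with -1.03 for the strongest and -0.85, -0.81 and -0.29 for its other probe sets in MET KO + EGFRi. For both genes day 5 was the lowest MET KO + EGFRi array. Mup3, a major urinary protein, had 13264, 3077, 4373 and 1318 in MET KO + EGFRi and 20468, 30231, 14326 and 5845 in controls (-1.68 and -1.28, on a probe set that can bind relatives). Of the 22 genes of this list 5 were at least 2-fold lower in MET KO + EGFRi, against 1.71 percent of all kept genes. The 3 at least 2-fold higher were Mup10 (1.07), the elongase Elovl3 (1.11) and Prom1 (1.48), against 1.4 percent of all kept genes. In controls 4 were at least 2-fold lower and 1 higher, against 2.21 and 2.77 percent of all kept genes.

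Of 18 glucose and amino acid genes 2 were at least 2-fold lower in MET KO + EGFRi, against 1.71 percent of all kept genes. In controls 1 was at least 2-fold lower and 1 higher, against 2.21 and 2.77 percent of all kept genes. Igfbp1, a fasting-induced binding protein of IGF1, had 14038, 2327, 2367 and 836 on days 0, 1, 2 and 5 in MET KO + EGFRi and 839, 345, 467 and 726 in controls (-1.43 and 0.57). Pck1, the key enzyme of glucose production, had 16688, 8836, 15208 and 7279 in MET KO + EGFRi and 11656, 7802, 6886 and 4921 in controls (-1.06 and -0.48). Its other probe sets in MET KO + EGFRi gave -1.80 and -0.03.

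**Figure D5:**
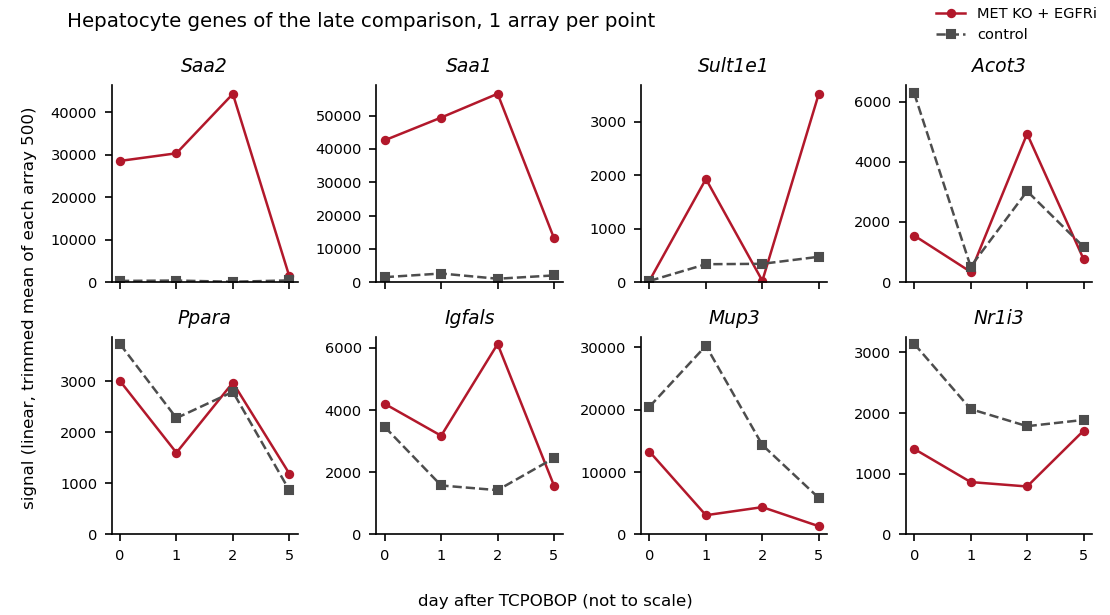
Signal (linear) of 8 hepatocyte genes on days 0, 1, 2 and 5 in MET KO + EGFRi (red circles) and control livers (grey squares), 1 array per point and days evenly spaced. Saa2 and Saa1 are far above control until day 2 and much lower, though still above control, at day 5. Sult1e1 is high on days 1 and 5 but not on day 2 in MET KO + EGFRi, and Acot3, Ppara, Igfals and Mup3 have a lower day 5 than day 2 signal there.

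Markers of other cell types were read because a liver pool holds more than hepatocytes, and fewer cells of a type cannot be told apart from less RNA per cell. Of 16 endothelial markers 13 were lower at day 5 in MET KO + EGFRi, with a median of -0.28. The share of all kept genes lower there was 48.7 percent. Only 1 of the markers was at least 2-fold lower, against 1.71 percent of all kept genes. In controls 15 of 16 were higher, against 54.3 percent of all kept genes, with a median of 0.33. The summed signal of the 16 markers was 17889 at day 5 and 20934 at day 2 in MET KO + EGFRi, against 20199 and 15355 in controls. Eng, a co-receptor of vessels, had 681, 181, 1025 and 371 on days 0, 1, 2 and 5 in MET KO + EGFRi (-1.31), but its second probe set gave -0.13. Of 17 Kupffer cell markers none was 2-fold different in MET KO + EGFRi, with a median of 0.09. In controls 4 were at least 2-fold higher, against 2.77 percent of all kept genes, with a median of 0.62. The 8 hepatocyte markers had a median of 0.05 in MET KO + EGFRi and 0.57 in controls, and the part of cell composition in the results above was not tested.

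Genes outside these lists filled most of the remaining places among the 12 largest changes in each direction of genes whose brighter signal reached its array's upper quartile. The higher ones were Dnajc6 (2.94), the myeloid lectin Cd33 (2.56), the repressor Hic2 (2.42), the protease Mmp7 (2.31), Pithd1 (2.23), the nuclear pore protein Nup62 (2.15), the class II gene H2-Ab1 (1.89), the kinase Ikbke (1.66) and the nucleotide hydrolase Samhd1 (1.60). Mmp7 had 115, 120.4, 108 and 813 on days 0, 1, 2 and 5 in MET KO + EGFRi and 124, 632, 109 and 1316 in controls, so it was high at day 5 in both arms. The increases of Nup62, H2-Ab1 and Samhd1 were not matched by their other probe sets, which gave -0.57 to 0.88, -0.11, and -0.38 to 0.51.

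The lower ones were Nrip2 (-2.98), the GTPase-activating protein Tbc1d13 (-2.69), the mitochondrial ribosomal protein Mrpl55 (-2.61), the ligand Wnt7b (-2.38, with -0.60 for a second probe set), Serpina4-ps1 (-2.15), the chaperone Fkbp8 (-2.07), the repair factor Ercc1 (-1.93) and the zinc finger factor Maz (-1.87). Serpina4-ps1, a pseudogene of the serpin family, had 11430, 3378, 2943 and 606 on days 0, 1, 2 and 5 in MET KO + EGFRi and 2090.0, 921, 504 and 277 in controls. Its 3 probe sets gave -2.15, -2.41 and -3.81 in MET KO + EGFRi, and in both arms every later array was below the one before it.

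The change in MET KO + EGFRi was at least 1 above that of controls for 571 genes (4.71 percent of those kept) and at least 1 below it for 711 (5.87 percent). For 14 genes (0.116 percent) the day 5 signal was 2-fold or more above day 2 in MET KO + EGFRi and 2-fold or more below it in controls. For 30 genes (0.248 percent) the reverse held. In 15 genes (0.124 percent) the day 5 signal was at least 2-fold higher in both arms and in 15 (0.124 percent) at least 2-fold lower in both. The 6 highest differences between the arms were those of Mad2l1, Sult1e1, Mrpl52, Ccnb2, Rrm2 and Ptgr1, of which Mad2l1, Ccnb2 and Rrm2 are cell cycle genes. Of these, Mad2l1 and Ccnb2 passed the filter on low signals only through the control arrays, where their day 2 signal was high.

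Averaged over both arms, limma with arm and day as additive terms called 0 genes (0 percent) between days 5 and 2 at an adjusted p under 0.05. The smallest adjusted p was 0.67. An unadjusted limma p under 0.05 was found for 351 higher and 275 lower genes (2.9 and 2.27 percent). Together this is close to the share that such a threshold gives with no change. This fit measures only what both arms share. Its spread is how far the 2 arms departed from a common course over the days. Real differences between the arms are part of that spread. The genes of smallest p were Samhd1, Casc3 and Il1f10 on the higher side, with mean differences of 1.48, 1.27 and 1.27, and Tbc1d13, Acsf2 and Ppara on the lower side, with -2.11, -1.48 and -1.44 (adjusted p = 0.67 each).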

How the data were processed

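Liver RNA of 8 pools was read on Affymetrix mouse arrays, 1 array per arm and day. The deposited intensity values, 1 linear signal per probe set, were made by the authors with MAS5, per the submitters' processing notes; its version and detection calls are not given in the sources used here. The mean of each array, trimmed by 2 percent at each end, is 500. The labelled input was 6 µg of total RNA, per the labels' protocols.

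Of 45101 probe sets 64 controls were left out, and 34945 had 1 gene in the platform's table, 932 several and 9160 none listed. The lower quartile of all values, 71, was added before taking log2. A gene was its probe set of highest mean, kept at a mean log2 value of at least 8.24, the median, which left 12112 of 18193 genes. Probe sets named _s_at or _x_at may read relatives of a gene as well.

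Within an arm, genes 2-fold apart were counted without a test. Averaged over both arms, limma (3.58.1, under R 4.3.3) was run with additive terms for arm and day, a variance trend and 3 residual degrees of freedom, with Benjamini-Hochberg adjustment. On simulated data (12112 genes, 10 simulations) it found 0 percent of the genes changed 1.5-fold, 18.4 percent at 2-fold, 69.8 percent at 4-fold and 89.8 percent at 8-fold, with 3.16 percent of calls false.

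This comparison and its members, the 37 gene lists and the tests were chosen with earlier results of these data known. The genes to name were the 12 largest increases and decreases among genes whose brighter signal reached its array's upper quartile, up to 6 members per list, 6 differences between arms in each direction, the 3 genes of smallest limma p in each direction, and a set of growth, CAR and cell cycle genes. The checks on second probe sets, the counts by day over the 94 cell cycle genes and the choice of printed promoters were made after the values were seen. Promoters are 250 bases upstream of RefSeq starts. Alternatives changed the pseudocount, filter, scaling, and the rule for probe sets, and left out each array in the limma fit.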

Additional observations from a re-analysis of the deposited data

Results flagged for a closer look

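Several results lay in opposite directions in the 2 arms between days 5 and 2. With 1 array per arm and day, none of these differences was tested. The cell cycle genes Mad2l1 (1.98 in MET KO + EGFRi, against -2.97 in controls, log2 scale), Ccnb2 (1.07 against -2.63), Rrm2 (1.47 against -2.01) and Ect2 (1.11 against -1.47) were at least 2-fold higher at day 5 in MET KO + EGFRi and at least 2-fold lower in controls. So were Ptgr1, a prostaglandin reductase (1.55 against -1.90), and Mup10, a major urinary protein (1.07 against -1.33). Mad2l1, Ccnb2 and Ect2 passed the filter on low signals only through the control arrays.

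The reverse held for Saa2 (-4.91 in MET KO + EGFRi, against 1.51 in controls), Nrip2 (-2.98 against 3.84), Fkbp8 (-2.07 against 1.26) and Maz (-1.87 against 1.38). It also held for Phgdh, the first enzyme of serine synthesis (-1.24 against 2.38), Cfap61 (-1.23 against 2.59) and Erdr1 (-1.07 against 2.89). The probe sets read for Saa2, Rrm2, Phgdh and Erdr1 can bind related RNAs. Second probe sets in MET KO + EGFRi gave -0.02 for Phgdh and 0.17 for Cfap61.

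List medians were also on opposite sides of 0, without a test. They were 0.18 in MET KO + EGFRi and -0.49 in controls for DNA replication, 0.19 and -0.44 for G2/M and mitosis, and 0.26 and -0.16 for ribosome biogenesis. The medians were -0.21 in MET KO + EGFRi and 0.45 in controls for acute phase proteins, -0.26 and 0.12 for receptors, ligands and feedback genes of MET and EGFR, and -0.28 and 0.33 for endothelial markers.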

How the results depend on the processing

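Counts depended on the handling of weak signals more than on scaling. In MET KO + EGFRi, genes at least 2-fold higher and lower at day 5 numbered 258 and 315 with no pseudocount, 59 and 85 with a pseudocount set at the median, 510 and 486 without the filter on low signals, 45 and 76 with the filter at the upper quartile, and 101 and 112 with the mean of a gene's probe sets. Genes whose change lay at least 1 above or below that of controls numbered 281 and 387 with the median pseudocount, 1108 and 1375 without the filter, 245 and 299 with the stricter filter, and 334 and 462 with the mean of probe sets. Median and quantile scaling, and leaving out probe sets that can bind related RNAs, kept each of these counts within 1.5 times. limma called 0 genes in each of the 17 alternatives, with the smallest adjusted p from 0.203 to 0.869; leaving out each array in turn also gave 0 to 0 calls, the lone array of that day being assumed to vary like the others.

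Over 8 alternatives the median of cholesterol synthesis ran from 0.62 to 0.74, of mitotic genes from 0.11 to 0.21, of DNA replication from 0.03 to 0.18, of acute phase proteins from -0.24 to -0.08, of fatty acid oxidation from -0.39 to -0.32, and of nuclear receptors and transcription factors from -0.57 to -0.37. Among lists with a median of at least 0.1 in size, signs turned for lymphocyte markers (0.0695 without the filter, 0.04 with the stricter filter, 0.0518 without probe sets that can bind related RNAs), for pancreas, adipose and muscle markers (0.35 with the stricter filter, 0.0628 with the mean of probe sets), for serine synthesis (-0.0298 with the stricter filter) and for reference genes (-0.0017 without probe sets that can bind related RNAs). Among named genes at least 2-fold different, Nup62 (-0.15) and H2-Ab1 (-0.11) turned when such probe sets were left out. Lists and genes with smaller values also crossed 0. The cause was not tested. A filter on the MET KO + EGFRi arrays alone, chosen after seeing the data, left 144 genes at least 2-fold higher and 188 lower. No paired analysis was possible because each group had 1 array and thus 1 replicate number; the limma fit took the arm as a term. Signals near the pseudocount carry no reliable fold.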

Other observations

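Genes of ribosome biogenesis, the building of new ribosomes, were higher at day 5 than at day 2 in MET KO + EGFRi livers for 19 of 25 measured, against 51.3 percent of all kept genes, 1 of them at least 2-fold. Of the 25, 15 had their lowest MET KO + EGFRi signal at day 2, against 24.8 percent of all kept genes. The RNA helicase Ddx21 had signals of 439, 669.6, 282 and 669 on days 0, 1, 2 and 5 in MET KO + EGFRi and of 469.8, 397, 493 and 504 in controls, a change of 1.07 (0.15 for a second probe set) and of 0.03. Genes of the unfolded protein response gave a median of 0.11 in MET KO + EGFRi and -0.11 in controls. Trib3, a pseudokinase of that response, was at least 2-fold higher in both arms (1.29 and 1.00). The chaperone Hspa5 had 8220, 13011, 6216 and 11165 on days 0, 1, 2 and 5 in MET KO + EGFRi, with a dip at day 2, and a change of 0.84.

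Among 18 receptors, ligands and feedback genes of MET and EGFR, 13 were lower at day 5 in MET KO + EGFRi, against 48.7 percent of all kept genes, and Spry4, an inhibitor of receptor kinase signalling, was at least 2-fold lower (-1.04, against 0.35 in controls). Fosb, an immediate early factor, was the 1 of 15 ERK response genes at least 2-fold lower, against 1.71 percent of all kept genes. It had 262, 481, 498 and 71.9 on days 0, 1, 2 and 5 in MET KO + EGFRi and 431, 397, 521 and 518 in controls. Of 16 clock genes 12 were lower at day 5 in MET KO + EGFRi, against 48.7 percent of all kept genes, and 11 in controls. At least 2-fold lower were 1 in MET KO + EGFRi and 3 in controls, against 1.71 and 2.21 percent of all kept genes. The medians were -0.33 in MET KO + EGFRi and -0.39 in controls. The hour at which livers were taken is not given in the labels.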
